A study of Homo sapiens with 12 samples.

Results

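Tigger elements are the TcMar-Tigger family of DNA transposons, and they were chosen here by their family name in the repeat annotation and by reads on the strand of the element. In the 12 libraries together, 36690 annotated Tigger elements held such reads, out of 1509971 elements of the 6 classes LTR, LINE, SINE, DNA, RC and Retroposon. They fell into 64 subfamilies, of which 40 carry Tigger names and 17 carry MER names. No difference between groups entered the choice.

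RNA bound by a V5-tagged protein was recovered from A375 cells, an established human melanoma line, by PAR-CLIP, in which cells take up a photoactivatable uridine analogue, protein and RNA are crosslinked by ultraviolet light and the protein is immunoprecipitated with its RNA. The question was which RNAs are held by ZC3H18 (Z18), a zinc-finger protein of nuclear RNA surveillance, and whether truncation or changed zinc-finger residues alter that. All 4 groups carried a pcDNA3.2 plasmid by transient transfection, with labelling from 24 h later and crosslinking at 316 nm, in 3 libraries each. Ribosomal RNA was depleted and stranded libraries were made.

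The control group, Clover, expressed a fluorescent protein with the V5 tag. Z18fl was full-length ZC3H18, Z18trunc the truncated form, and Z18truncZnFmut the truncated form with mutated aromatic residues in the zinc finger. No deletion of the cells' own ZC3H18 gene is named in the labels. No label says that the 3 libraries of a group came from separate cultures, so p-values measure only the spread between these libraries, which may be technical. There was no input library here, so more RNA from an element in the cell and more of that RNA in the pull-down cannot be told apart.

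Tigger elements are relatives of the pogo transposon and moved by cut and paste. A full element carries a transposase gene between short inverted repeats and sits between TA dinucleotides, the target that the enzyme duplicates on insertion. The human copies are old and no longer move, many are fragments, and a few transposase genes of this kind were taken over as host genes, among them JRK, JRKL and the TIGD genes.

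Both features were looked for in the longest elements of Tigger1, Tigger2, Tigger3 and MER2. These were taken from elements with reads on either strand. Among the 824 longest Tigger1 elements (2282 to 2648 bases), the most frequent first 12 bases were CAGGCATACCTC (55 elements) and the most frequent last 12 were GAGGTATGCCTG (72 elements), which are reverse complements of each other. In Tigger2 (169 elements of 2052 to 2795 bases) the pair was CAGTTGACCCTT (17 elements) and AAGGGTCAACTG (25 elements), again reverse complements. TA stood at both flanks of 20.02% of these Tigger1 elements and 13.6% of these Tigger2 elements. The most frequent ends were not exact reverse complements in Tigger3 (61 elements of 901 to 3027 bases) or MER2 (481 elements of 339 to 560 bases). In Tigger3 each of these ends was held by only 2 elements, too few to judge. In MER2 the first was held by 30 elements and the last by 21. These MER2 ends were reverse complements except at a single position, so the values do not show that MER2 lacks an inverted repeat. For TA at both flanks the values were 0.0% in these Tigger3 elements and 25.4% in these MER2 elements.

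The stretches below come from 3 of the Tigger1 elements described later, all in introns on the minus strand, and are printed 5′ to 3′ on the strand of the element. The first pair shows 1 end of the inverted repeat each, with capitals for the terminal 12 bases. The last 12 bases of CDC42BPA differ from the most frequent end at 1 position and its first 12 at 7, while in MIR31HG the first 12 differ at 3 and the last 12 at 11. LINC02882 keeps the repeat at neither end (9 and 10 positions differ) and is shown for a T run, a U run in RNA, with capitals for at least 5 T.
Tigger1 in CDC42BPA, last 100 bases, hg38 chr1:227018668-227018767, minus strand: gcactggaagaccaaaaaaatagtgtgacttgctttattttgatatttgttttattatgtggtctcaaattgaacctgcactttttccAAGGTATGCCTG
Tigger1 in MIR31HG, first 100 bases, hg38 chr9:21530917-21531016, minus strand: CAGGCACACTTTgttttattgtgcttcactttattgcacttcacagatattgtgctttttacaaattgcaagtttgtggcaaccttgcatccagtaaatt
Tigger1 in LINC02882, 100 bases around its first T run, hg38 chr12:74215711-74215810, minus strand: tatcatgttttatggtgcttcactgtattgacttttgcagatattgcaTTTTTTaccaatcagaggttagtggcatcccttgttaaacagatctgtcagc

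Libraries held 16683132 to 25686948 aligned fragments. Reads on the strand of elements of the 6 classes made up 3.81% to 5.82% of them in 11 libraries and 9.02% in Z18truncZnFmut replicate 3. That library listed 21983 Tigger elements, against 2731 to 8614 in the other 11, and it put a larger share of its Tigger reads outside genes. Several results on Z18truncZnFmut are therefore given with and without it, among them the family change and the calls of subfamilies and loci against Clover. Where both are given, its part is stated as measured. Others, among them the locus medians and most single loci, are given with it only. Between 69.8% and 78.9% of the Tigger counts of a library were uniquely mapping reads.

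Reads on Tigger elements were more abundant with Z18fl and Z18trunc than with Clover. As counts per 1000000 aligned fragments (CPM), the family sum was 664, 580 and 585 in the Clover libraries and 1161, 1167 and 1234 in the Z18fl libraries. It was 991, 1042 and 1143 with Z18trunc, and 803, 835 and 1915 with Z18truncZnFmut. All 9 libraries with a ZC3H18 construct lay above all 3 Clover libraries, and the Z18fl libraries lay above the Z18trunc libraries. The mean CPM was 1.95 times that of Clover with Z18fl and 1.74 times with Z18trunc.

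Elements of the 6 classes as a whole held a larger share of the aligned fragments with the ZC3H18 constructs (4.93% or more in each library) than with Clover (4.19% or less), so the family was also read against the other elements. Its share of all element counts was 1.586%, 1.502% and 1.534% with Clover and 2.24%, 2.37% and 2.24% with Z18fl. The share was 1.78%, 1.83% and 1.96% with Z18trunc, and 1.51%, 1.62% and 2.12% with Z18truncZnFmut. Shares did not overlap between Clover, Z18trunc and Z18fl, and those of Z18truncZnFmut overlapped with Clover and with Z18trunc.

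**Figure D1:**
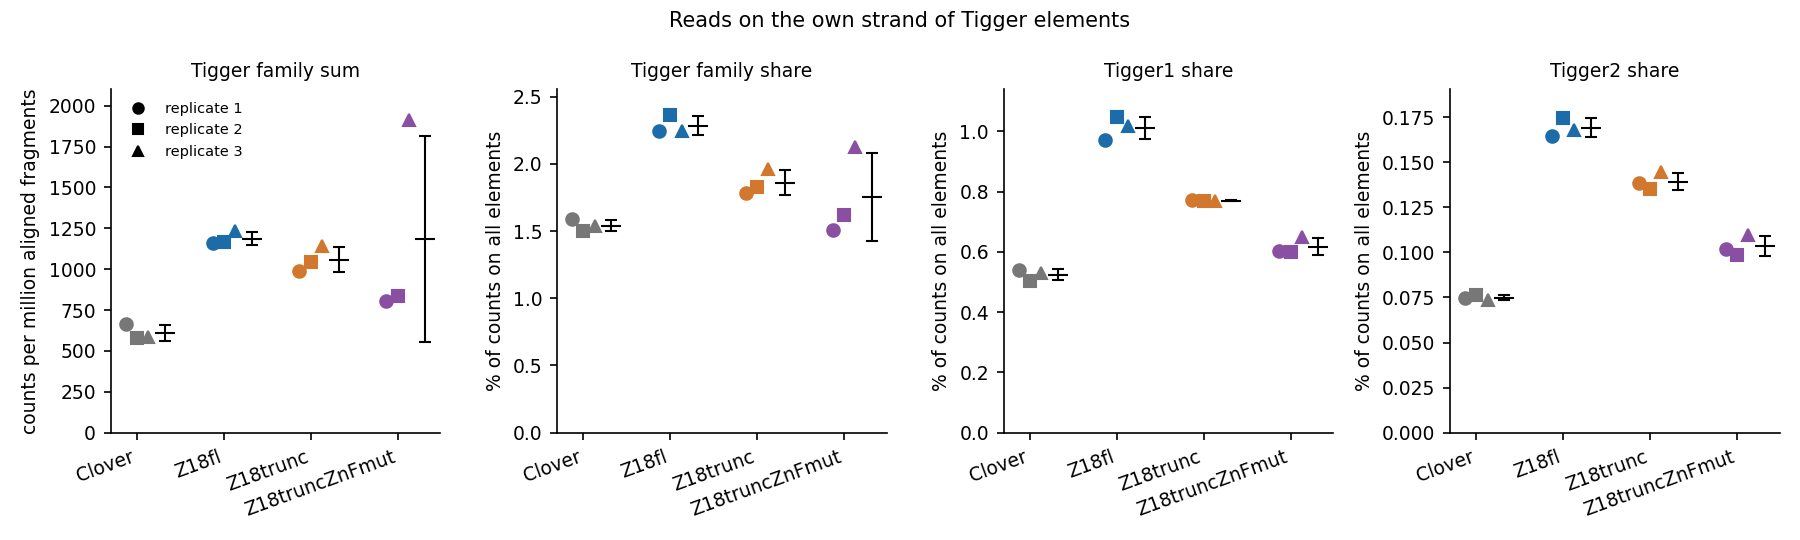
Own-strand reads on Tigger elements by library, with points for the 3 libraries of each group (marker shape gives the replicate number) and bars for mean and SD; the left panel is the family sum in CPM, and the others are the percent of counts on all elements held by the family, Tigger1 and Tigger2. Z18fl is highest in each share panel, and Z18truncZnFmut replicate 3 stands at 1915 CPM against 803 and 835 in its group.

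In the edgeR fit of family sums, which scales by TMM and so reads each family against the other elements, the Tigger family was higher in Z18fl than in Clover by 0.49 on the log2 scale (SE 0.02, adjusted p = 2.44e-06). That was rank 4 of 39 families tested, where 4 families were called higher and 14 lower and the median family stood at -0.13. In Z18trunc the edgeR log2 change was 0.30 (SE 0.05, adjusted p = 0.00213), rank 5 of 39, with 3 families called higher and 9 lower. The call in Z18trunc was lost when reads of both strands were summed (0.12, edgeR adjusted p = 0.0915), and the value in Z18fl then became 0.24 (SE 0.03) and stayed called. With aligned fragments as library size the values were 0.96 in Z18fl and 0.80 in Z18trunc.

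Other families of DNA transposons gave values on either side of Tigger. PiggyBac was higher by 0.54 in Z18fl (SE 0.13, edgeR adjusted p = 0.0147, rank 3 of 39) and by 0.61 in Z18trunc (SE 0.13, adjusted p = 0.00704, rank 2). hAT-Charlie, with 64680 elements listed, held 2.60%, 2.54% and 2.63% of element counts with Clover and 2.60%, 2.68% and 2.46% with Z18fl, and its edgeR log2 change was -0.08 in Z18fl (adjusted p = 0.0376). TcMar-Mariner, which shares the TcMar superfamily with Tigger, stood at 0.04 in Z18fl and -0.05 in Z18trunc and was not called. TcMar-Tc2 fell by 0.23 and 0.29 on the log2 scale, both called by edgeR at adjusted p = 0.0162 and 0.0100. Outside the DNA transposons, the L1 family of LINEs was higher by 0.49 in Z18fl (SE 0.08, edgeR adjusted p = 0.00217, rank 5). In Z18trunc L1 was higher by 0.75 (SE 0.10, edgeR adjusted p = 0.00172, rank 1).

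Z18trunc was lower than Z18fl (-0.22 on the log2 scale, SE 0.03, edgeR adjusted p = 0.0064), as 1 of 2 families called lower of 40. The call was lost without Z18fl replicate 3 (-0.22, adjusted p = 0.0567), and with aligned fragments as library size (-0.17, adjusted p = 0.215) or all 12 libraries in 1 fit (-0.18, adjusted p = 0.886). With Z18truncZnFmut the family change against Clover was 0.00 (SE 0.09, adjusted p = 0.997), and without its replicate 3 it was 0.09 (SE 0.03, adjusted p = 0.101). With aligned fragments as library size it was 0.96 (SE 0.38, edgeR adjusted p = 0.197). Against Z18trunc the family stood at -0.27 in Z18truncZnFmut (SE 0.08, adjusted p = 0.464), and at -0.22 without replicate 3 (edgeR adjusted p = 0.269).

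Intronic reads took a larger share of the Tigger counts with Z18fl and Z18trunc than with Clover. Elements inside introns on the strand of their gene held 50.9%, 51.0% and 52.1% of the Tigger counts with Clover and 66.7%, 66.2% and 67.9% with Z18fl. The same share was 64.96%, 65.2% and 59.6% with Z18trunc and 60.6%, 61.2% and 44.6% with Z18truncZnFmut. In CPM, intronic Tigger reads were 2.54 times the Clover mean with Z18fl and 2.13 times with Z18trunc, and Tigger reads in exons were 1.21 and 1.08 times that mean. Intergenic Tigger reads were 1.77 and 1.94 times the Clover mean, and those antisense to a gene 1.19 and 1.52 times. Both Z18trunc ratios were raised by its replicate 3. Intergenic CPM was 93.2, 97.2 and 158.7 in the Z18trunc libraries, against a Z18fl mean of 106.2. Antisense CPM was 49.7 and 52.1 in Z18trunc replicates 1 and 2, below the Z18fl mean of 53.1, and replicate 3 lay above that mean.

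Exonic elements held 30.6% to 32.6% of the Tigger counts with Clover and 19.1% to 19.98% with Z18fl. In Z18truncZnFmut replicate 3, intergenic elements held 25.5% and elements antisense to a gene held 20.5%, against at most 13.9% and 8.9% in the other 11 libraries. Leaving that library aside, intronic shares of the 2 other Z18truncZnFmut libraries lay between those of Clover and Z18fl.

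**Figure D2:**
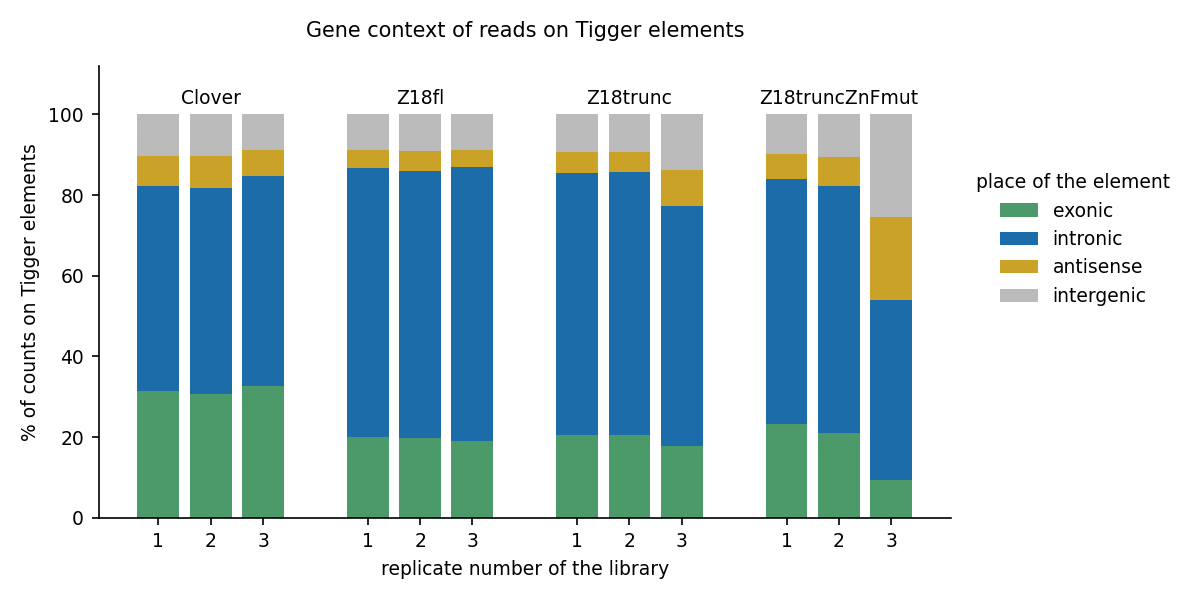
Percent of own-strand Tigger counts (vertical axis) by the place of the element, 1 stacked bar per library, grouped by construct. The intronic part is 50.9% to 52.1% in Clover and 66.2% to 67.9% in Z18fl, and the last bar, Z18truncZnFmut replicate 3, has the largest antisense and intergenic parts.

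Tigger1, the largest subfamily, made up much of the change. It had 8239 elements with reads on either strand, with a median length of 782 bases. Its CPM was 226, 194 and 202 with Clover, 503, 516 and 560 with Z18fl, 428, 438 and 448 with Z18trunc, and 321, 308 and 585 with Z18truncZnFmut. All Z18fl libraries lay above all Z18trunc libraries, and these above Clover. By edgeR its log2 change was 0.87 in Z18fl (SE 0.06, adjusted p = 4.06e-08) and 0.59 in Z18trunc (SE 0.10, adjusted p = 0.00014). Without Tigger1 the rest of the family still held a larger share of element counts with Z18fl (1.27%, 1.32% and 1.22%) than with Clover (1.05%, 0.998% and 1.004%).

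Tigger2 rose in the same comparisons, from a lower level. Its CPM was 31.2, 29.6 and 28.1 with Clover and 85.2, 86.3 and 92.5 with Z18fl. It was 76.8, 77.0 and 84.0 with Z18trunc, and 54.1, 50.9 and 98.7 with Z18truncZnFmut. The edgeR log2 change was 1.10 in Z18fl (SE 0.07, adjusted p = 2.34e-08) and 0.93 in Z18trunc (SE 0.09, adjusted p = 5.08e-07). With reads of both strands summed these became -0.16 and -0.17. A single Tigger2 element antisense to HUWE1 (chrX:53596194-53598785) held opposite-strand reads at 86.6, 75.2 and 75.6 CPM with Clover and 40.9, 45.6 and 41.8 with Z18fl, and its part in these values was not tested.

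Tigger3 and Tigger5 rose with both Z18fl and Z18trunc. Tigger3 CPM was 6.21, 5.96 and 6.01 with Clover, 17.7, 19.8 and 20.2 with Z18fl and 15.6, 16.9 and 17.9 with Z18trunc, and its edgeR log2 changes were 1.20 (SE 0.10, adjusted p = 2.45e-07) and 0.97 (SE 0.13, adjusted p = 9.57e-06). Tigger5 CPM was 6.95, 4.21 and 4.58 with Clover, 15.5, 17.1 and 17.2 with Z18fl and 10.2, 9.75 and 10.3 with Z18trunc. Its edgeR log2 changes were 1.20 in Z18fl (SE 0.13, adjusted p = 1.52e-06) and 0.46 in Z18trunc (SE 0.16, adjusted p = 0.0435), and Z18trunc was lower than Z18fl (-0.77, SE 0.10, adjusted p = 0.000947). The Tigger5 call of Z18trunc against Clover was lost without any of Clover replicate 2 (0.35), Clover replicate 3 (0.44), Z18trunc replicate 1 (0.39) or Z18trunc replicate 2 (0.45).

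By edgeR, 18 of 55 Tigger subfamilies tested were called higher and 7 lower in Z18fl, where 20.1% of all subfamilies tested were called higher and 20.1% lower. In Z18trunc, 7 of 56 were called higher and 7 lower, against 14.5% and 11.9% of all. The Tigger count of higher calls is thus above the background share in Z18fl and near it in Z18trunc under TMM scaling. With aligned fragments as library size, 43 of 55 were called higher in Z18fl and 36 of 56 in Z18trunc, against 54.1% and 45.1% of all. The 7 higher in Z18trunc were Tigger17, Tigger3, Tigger2, Tigger20a, Tigger1, Tigger5 and Tigger15a. Both comparisons use the same Clover libraries. Leaving out Z18trunc replicate 2 gave 4 higher subfamilies and leaving out Z18trunc replicate 3 gave 12.

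Several subfamilies went the other way. Tigger19b, with a median length of 148 bases and a median divergence of 31.5% from its consensus (13.5% for Tigger1), stood at a CPM of 38.8, 32.4 and 36.9 with Clover, 37.8, 35.2 and 38.7 with Z18fl and 35.1, 38.5 and 37.5 with Z18trunc. Its CPM thus overlapped between the groups, while edgeR, reading it against the other elements, called it lower in Z18fl (-0.42, SE 0.08, adjusted p = 0.000343) and in Z18trunc (-0.45, SE 0.10, adjusted p = 0.00264). Both calls were lost with all 12 libraries in 1 fit (-0.41 and -0.43), and with aligned fragments as library size these values turned to 0.05 and 0.04. Tigger19a turned from -0.35 to 0.12 in Z18fl and from -0.40 to 0.10 in Z18trunc in the same way, MER6A from -0.39 to 0.08 in Z18fl, and Tigger10 and MamRep434 from -0.42 and -0.44 to 0.07 and 0.06 in Z18trunc. The other falls called by edgeR kept their negative sign under that scaling. In Z18fl these were MamRep434, Tigger3d, Tigger14a and Tigger5b, and in Z18trunc MER6A, Tigger3d and Tigger14a. No Tigger subfamily was called lower against Clover under that scaling. It moves the median over all loci from 0.01 to 0.48 in Z18fl, from -0.03 to 0.39 in Z18trunc and from -0.05 to 0.24 in Z18truncZnFmut.

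With Z18truncZnFmut, edgeR called 0 of 54 Tigger subfamilies in either direction, where 1.3% of all subfamilies were called higher and 0.0% lower. At an unadjusted p under 0.05 there were 3 higher and 11 lower, against 10.3% and 8.25% of all, and DESeq2 called 0 higher and 3 lower, against 4.45% and 2.5%. Tigger1 stood at 0.08 (SE 0.20, edgeR adjusted p = 0.845) and Tigger2 at 0.31 (SE 0.18, edgeR adjusted p = 0.401). Without Z18truncZnFmut replicate 3, edgeR called 3 higher and 6 lower of 53, against 10.9% and 5.7% of all subfamilies, among them Tigger1 at 0.27 (adjusted p = 0.021) and Tigger2 at 0.49 (adjusted p = 5.32e-05).

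Between constructs, edgeR called 0 of 59 Tigger subfamilies higher and 3 lower in Z18trunc than in Z18fl, against 1.48% and 2.43% of all subfamilies (unadjusted, 1 higher and 15 lower, against 10.1% and 8.97%; DESeq2, 0 and 3, against 3.06% and 2.11%). The 3 were Tigger5, Tigger10 (-0.39, SE 0.08, adjusted p = 0.0183) and Tigger1 (-0.31, SE 0.08, adjusted p = 0.0462). Tigger5 alone stayed called by edgeR when Z18fl replicate 1, Z18fl replicate 2, Z18trunc replicate 1 or Z18trunc replicate 2 was left out, which gave 1 lower call each, and without Z18trunc replicate 3 there were 9. With all 12 libraries in 1 fit, 0 were called lower. In Z18truncZnFmut against Z18trunc, edgeR called 0 of 59 in either direction, as for 0.0% and 0.0% of all subfamilies. At an unadjusted p under 0.05 there were 0 higher and 8 lower, against 1.15% and 3.97% of all, and DESeq2 called 0 and 0, against 0.0% and 0.0%.

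**Figure D3:**
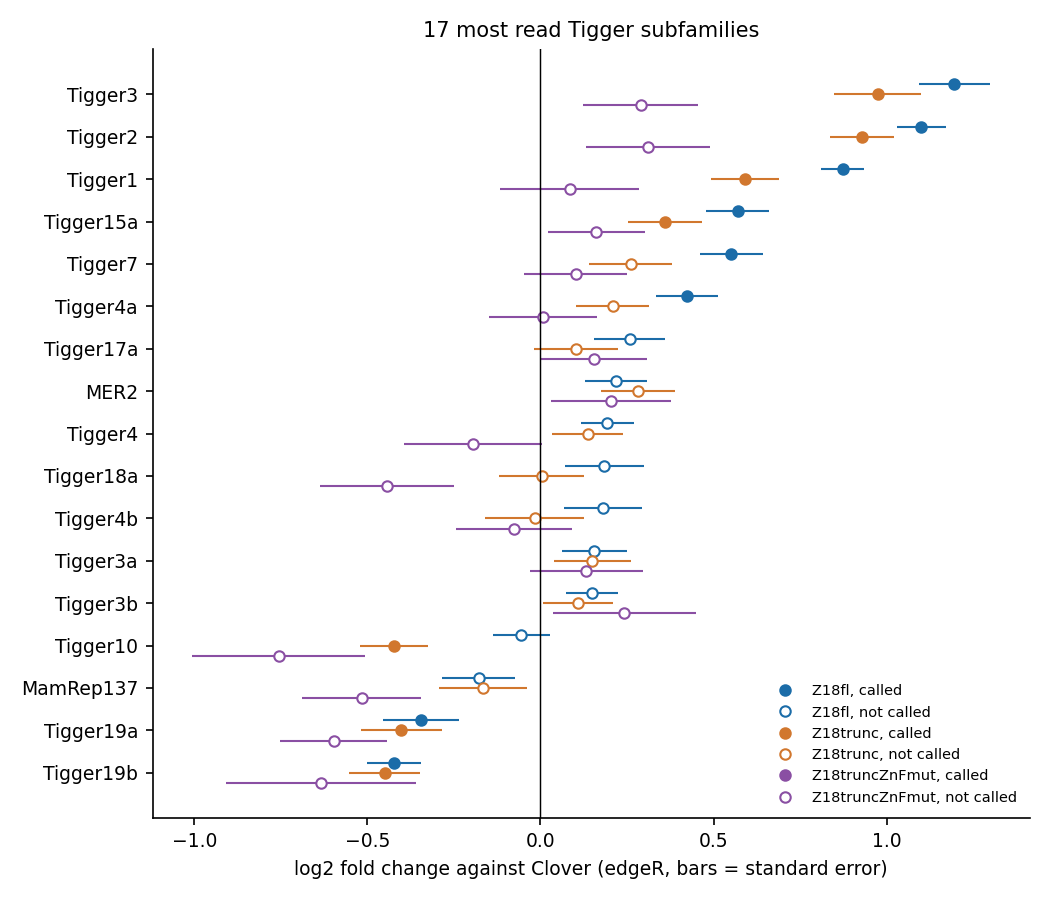
edgeR log2 fold change against Clover (horizontal axis, bars are standard errors) for the 17 Tigger subfamilies with the most counts, with filled points for adjusted p under 0.05. Tigger3, Tigger2, Tigger1 and Tigger15a are called higher in Z18fl and Z18trunc, Tigger19a and Tigger19b lower, and all Z18truncZnFmut points are open; the falls turn sign with aligned fragments as library size.

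At single elements, most Tigger loci had too few reads to test. In Z18fl against Clover, 289 Tigger loci passed the filter on low counts, and 147 of them were called higher and 30 lower by edgeR, where 28.3% of all loci tested were called higher and 24.6% lower. The median log2 change was 1.03, against 0.01 over all 12098 loci tested. Many loci pass such a filter through the group in which they are high, so these counts and medians describe the loci tested and not the family. The lower calls numbered 16, 19 and 17 without Z18fl replicate 1, 2 and 3, and 12 with aligned fragments as library size. Of the called loci, 83.1% were higher, and 94.5% were with aligned fragments as library size. Over all loci, 3424 were called higher and 2981 lower, and 4934 and 1699 with aligned fragments as library size.

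In Z18trunc against Clover, 259 Tigger loci were tested and edgeR called 90 higher and 23 lower, against 22.5% and 13.4% of all loci. The median was 0.43 against -0.03 over all 13204 loci, with 0.0059 when reads of both strands were summed and 0.75 without Clover replicate 2. Lower calls fell to 11 without Z18trunc replicate 1 and to 10 without Z18trunc replicate 2. Of the called loci 79.6% were higher, and 97.1% were with aligned fragments as library size. Over all loci, 2969 were called higher and 1773 lower, and 4280 and 494 with aligned fragments as library size. In Z18truncZnFmut against Clover, 165 Tigger loci were tested and 14 were called higher and 8 lower, against 12.3% and 4.83% of all loci. The median was -0.13 against -0.05 over all 10152 loci. It turned to 0.085 without Clover replicate 1, 0.075 without Clover replicate 3, 0.27 with aligned fragments as library size (0.24 over all loci) and 0.39 with all 12 libraries in 1 fit (0.057 over all loci). Without Z18truncZnFmut replicate 3 the calls were 11 higher and 4 lower. Lower calls there numbered 4, 5, 5 and 2 without Clover replicate 1, Clover replicate 2, Z18truncZnFmut replicate 1 and Z18truncZnFmut replicate 2. Of the called loci 63.6% were higher, and 95.0% were with aligned fragments as library size. Over all loci, 1245 were called higher and 490 lower, and 2013 and 133 with aligned fragments as library size.

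The loci tested by the comparison of Z18trunc with Z18fl leaned to Z18fl. Of 465 Tigger loci, edgeR called 1 higher and 34 lower in Z18trunc, against 2.62% and 3.13% of all 19413 loci. The 1 higher locus is the Tigger19a element in ZNF776 described below, and it was not called without Z18fl replicate 1. The median was -0.35 for Tigger loci and 0.01 for all. The lower calls numbered 18 without Z18fl replicate 1, 11 without Z18fl replicate 2, 13 without Z18trunc replicate 1 and 19 without Z18trunc replicate 2. For Z18truncZnFmut against Z18trunc, 0 of 350 were higher and 2 lower, against 0.368% and 0.351% of all loci, with 6 higher and 55 lower at an unadjusted p under 0.05 (6.76% and 7.6% of all) and 0 and 3 called by DESeq2 (0.517% and 0.481% of all). 1 of the 2 lies in MIR31HG, and 0 were called without Z18trunc replicate 1 or Z18trunc replicate 2.

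The loci that passed the filter are described next by place and length. Of 183 intronic Tigger loci tested in Z18fl, 121 were called higher and 6 lower by edgeR, with a median of 1.65 against 0.64 over all intronic loci. That is 66.1% higher and 3.28% lower, against 41.8% and 12.8% of all 5324 intronic loci. Of 76 exonic Tigger loci, 15 were called higher and 21 lower, with a median of -0.33 against -0.62 over all exonic loci. That is 19.7% and 27.6%, against 11.5% and 42.4% of all exonic loci. The 183 intronic loci lay in 157 host genes and the 121 higher ones in 110, so the calls were spread over many transcripts.

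Among Tigger loci of at least 2000 bases, 58 of 75 were called higher in Z18fl and 2 lower (median 1.87, against 1.09 over all loci of that length), which is 77.3% and 2.67%, against 55.7% and 7.23% of all such loci. Among those under 500 bases, 11 of 80 were called higher and 21 lower (median -0.18, against -0.39), which is 13.75% and 26.25%, against 16.005% and 32.8%. The Tigger loci tested had a median length of 1231 bases, against 311 over all loci tested, and an AT content of 60.8% against 50.3%. T made up 28.5% of their bases against 20.3%. TTTTT stood in the middle 100 bases of 38 of 280 Tigger loci (13.6%), against 5.05% of all, and AATAAA in 17 (6.07%) against 8.43%, both searched on the strand of the element only. TA stood at both flanks of 19 (6.57%), against 121 of all 12098 loci.

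The Tigger loci were also set beside elements of like place, length and base composition. Among intronic loci of at least 1000 bases with 55% to 65% AT, the median in Z18fl was 1.89 for 135 Tigger loci and 1.62 for 1432 loci of all families. In Z18trunc it was 1.52 for 120 Tigger loci and 1.87 for 1606 loci of all families, and in Z18truncZnFmut 0.66 for 58 and 1.31 for 1077. Between Z18trunc and Z18fl the Tigger median was -0.43 (219 loci) and that of all such loci 0.15 (2324 loci). In this stratum, chosen after its values were seen, the Tigger median was the higher in Z18fl and the lower in the other 3 comparisons given. The comparison of Z18truncZnFmut with Z18trunc is not given here. Loci of all families include the Tigger loci, and each comparison has its own set of loci that passed the filter. No test of these differences was made.

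**Figure D4:**
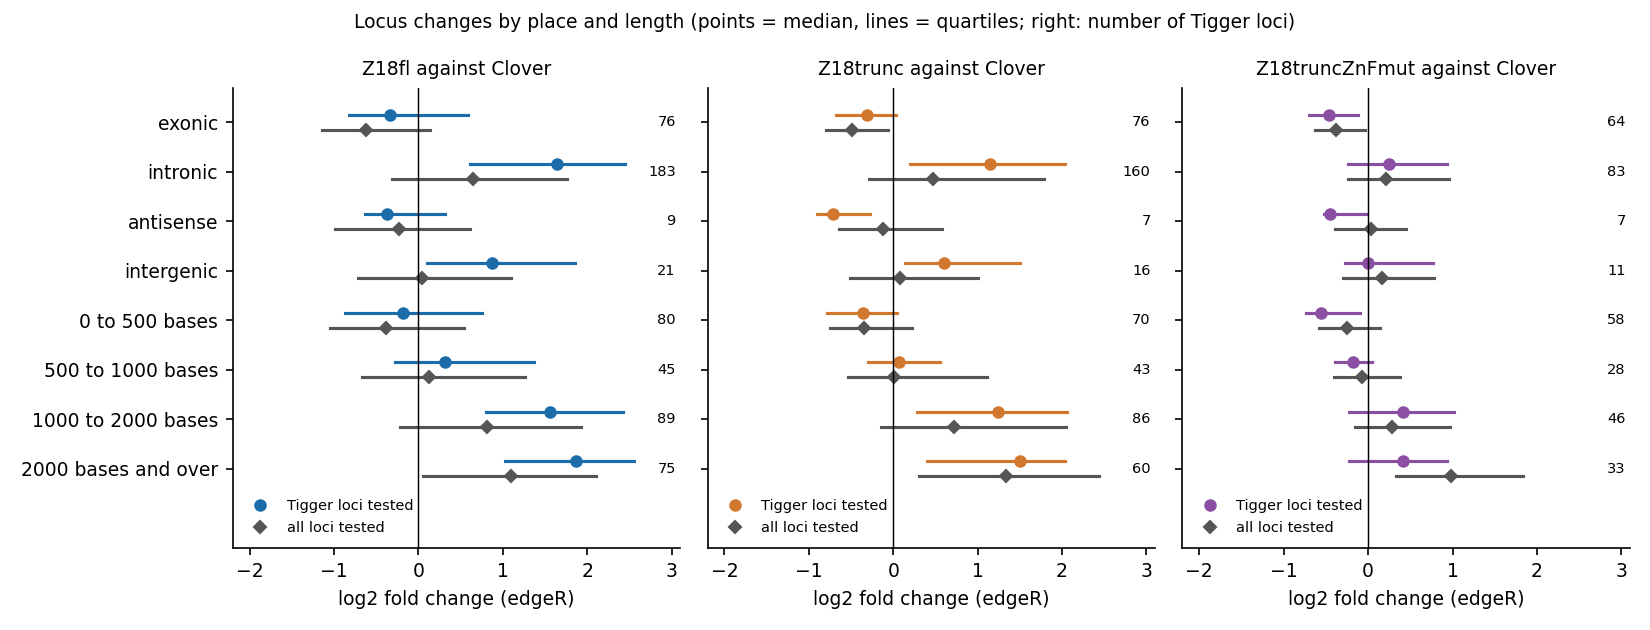
edgeR log2 fold change against Clover (horizontal axis) by place and length of the element, with points for medians, lines for quartiles, colour for Tigger loci, grey for all loci tested and the number of Tigger loci at the right. Tigger medians rise with length to 1.867 in Z18fl and 1.504 in Z18trunc, and intronic Tigger loci stand at 1.65 and 1.14.

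The 6 Tigger elements with the most reads were split between exons and introns. The intronic ones rose with Z18fl. The Tigger1 element in AK3, which encodes a mitochondrial adenylate kinase (hg38 chr9:4725912-4728263, 2352 bases), had a CPM of 6.17, 5.03 and 5.43 with Clover and 16.3, 14.2 and 18.2 with Z18fl. It had 8.87, 8.84 and 8.24 with Z18trunc and 7.49, 7.19 and 6.15 with Z18truncZnFmut. The Z18fl libraries stood above the other 9, with an edgeR log2 change of 1.18 against Clover (SE 0.14, adjusted p = 2.7e-06). In Z18trunc it was 0.30 (SE 0.15, adjusted p = 0.131), and Z18trunc was lower than Z18fl (-0.98, SE 0.13, edgeR adjusted p = 0.000141).

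A Tigger1 element in MIR31HG, the long noncoding host transcript of miR-31 (chr9:21528920-21531016), had its highest CPM with Z18trunc. Its CPM was 2.34, 1.99 and 2.32 with Clover, 6.48, 6.71 and 7.55 with Z18fl, 9.38, 10.0 and 9.34 with Z18trunc and 5.87, 4.79 and 4.83 with Z18truncZnFmut. The edgeR log2 changes against Clover were 1.28 in Z18fl (SE 0.18, adjusted p = 1.76e-05), 1.76 in Z18trunc (SE 0.17, adjusted p = 2.47e-07) and 1.02 in Z18truncZnFmut (SE 0.21, adjusted p = 0.00113). Z18trunc did not pass the test against Z18fl (0.39, SE 0.14, adjusted p = 0.102). Z18truncZnFmut was lower than Z18trunc (-0.72, SE 0.17, adjusted p = 0.0412), a call lost when any of the 6 libraries was left out, with no filter on low counts or with the replicate number as a block.

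Of the exonic ones, all but 1 showed no rise. The Tigger1 element that fills untranslated exon sequence of FNTA, the alpha subunit of protein farnesyltransferase (chr8:43078294-43080600), had a CPM of 14.8, 12.9 and 14.5 with Clover and 12.8, 12.6 and 14.5 with Z18fl. Its groups overlapped in CPM, and its edgeR log2 change of -0.44 in Z18fl (SE 0.12, adjusted p = 0.00629) became -0.08 with aligned fragments as library size. That call was also lost without Z18fl replicate 1 (-0.28), replicate 2 (-0.30) or replicate 3 (-0.32), or with no filter on low counts (-0.15). The Tigger19b element in untranslated sequence of KIRREL1, a cell adhesion protein (chr1:158097989-158098249), had a CPM of 10.4, 7.31 and 12.3 with Clover and 6.82, 5.97 and 6.81 with Z18fl, with an edgeR log2 change of -0.97 (SE 0.17, adjusted p = 0.000139; adjusted p = 0.0924 with no filter on low counts). The Tigger4 element in an exon of the noncoding gene ENSG00000276517 (chr2:32526070-32528220) stood at 8.22 to 12.1 CPM in all 12 libraries. By edgeR it was called lower in Z18fl (-0.42, adjusted p = 0.0186) and Z18trunc (-0.46, adjusted p = 0.00964). The FNTA and KIRREL1 elements were also called lower in Z18trunc (-0.50 and -0.62) and Z18truncZnFmut (-0.49 and -0.56). Each of these calls was lost under at least 1 alternative.

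JRK, a host gene made from a transposase of this kind, was the exception among the exonic ones. Its coding exon is annotated as a Tigger10 element (chr8:142664513-142666072). The CPM was 7.25, 8.95 and 7.02 with Clover, 15.2, 15.8 and 14.2 with Z18fl, 8.62, 8.97 and 9.76 with Z18trunc and 7.57, 7.38 and 7.39 with Z18truncZnFmut. The Z18fl libraries stood above the other 9, with an edgeR log2 change of 0.60 against Clover (SE 0.15, adjusted p = 0.00243), and Z18trunc was lower than Z18fl (-0.80, SE 0.14, adjusted p = 0.00187), a call lost with no filter on low counts (-0.80, adjusted p = 0.13).

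JRK belongs to a list of 12 transposase-derived genes (TIGD1 to TIGD7, JRK, JRKL, CENPB, POGK and POGZ), written after its values were seen. Exons of 5 of them held 9 Tigger elements, of which 3 had reads enough to be tested. Inside TIGD1, a Tigger1 element (chr2:232547906-232550277) had a CPM of 4.196, 5.90 and 4.75 with Clover and 6.91, 7.98 and 7.51 with Z18fl, and its edgeR log2 change of 0.23 was not called (SE 0.17, adjusted p = 0.279). The Tigger10 element in JRKL (chr11:96391013-96391641) had 2.70, 0.994 and 2.89 with Clover and 2.81, 2.18 and 1.71 with Z18fl, and its change of -0.33 was not called (SE 0.31, edgeR adjusted p = 0.381).

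By the naming rule, which asked that the group with more reads have a mean mapping score of 90% or over, 4 loci were eligible as rises with Z18fl. In the noncoding gene LINC02882, a Tigger1 element (chr12:74213944-74215815) had 1, 2 and 3 counts with Clover and 20, 21 and 22 with Z18fl, an edgeR log2 change of 2.50 (SE 0.54, adjusted p = 0.000834). A Tigger1 copy in HERC4, a ubiquitin ligase (chr10:68011304-68012803), had 3, 5 and 2 counts with Clover and 33, 26 and 40 with Z18fl, a change of 2.42 (SE 0.45, edgeR adjusted p = 0.000246). Both are intronic, and the 3 Z18trunc libraries of each also lay above Clover, at 17, 15 and 14 counts and at 40, 18 and 21 counts. The T run printed earlier is that of LINC02882.

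The Tigger1 element in CDC42BPA, a kinase that acts with CDC42 (chr1:227018668-227019898), had its highest counts with Z18fl. Its counts were 8, 9 and 4 with Clover, 31, 29 and 29 with Z18fl, 9, 3 and 15 with Z18trunc and 8, 10 and 14 with Z18truncZnFmut. The edgeR log2 change was 1.23 in Z18fl (SE 0.40, adjusted p = 0.0141; 0.88 and not called without Clover replicate 3), and Z18trunc was lower than Z18fl (-1.78, SE 0.40, adjusted p = 0.0112; -1.31 and not called without Z18trunc replicate 2). The Tigger19b element in an exon of LINC00235 (chr16:525651-525743) had 5, 0 and 4 counts with Clover and 17, 21 and 22 with Z18fl (1.86, SE 0.57, edgeR adjusted p = 0.0108; 1.24 and not called without Clover replicate 2). The 1 eligible fall with Z18trunc was the Tigger19a element in an exon of NMT1, an N-myristoyltransferase (chr17:45099655-45099876), with 18, 31 and 26 counts with Clover and 13, 23 and 15 with Z18trunc (-1.38, SE 0.35, edgeR adjusted p = 0.00429; -1.02 and not called with no filter on low counts).

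Larger rises appeared where the mapping score was not required, and the loci that follow were chosen after their values were seen. The Tigger1 element in an intron of ZDHHC21, a palmitoyltransferase (chr9:14630069-14632054), had 0 counts in all 3 Clover libraries. It had 21, 23 and 33 counts with Z18fl, 20, 27 and 32 with Z18trunc and 2, 8 and 14 with Z18truncZnFmut. Against a floor of 3 counts over the Clover group, its pooled CPM (counts of the group's libraries summed, per aligned fragments summed) was at least 18.4-fold higher with Z18fl, at least 18.9-fold with Z18trunc and at least 5.91-fold with Z18truncZnFmut.

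The Tigger2 element in an intron of GPR39, a zinc-sensing receptor (chr2:132432946-132435626), also had 0 counts in the Clover libraries. It had 17, 21 and 31 counts with Z18fl, 15, 15 and 21 with Z18trunc and 7, 17 and 1 with Z18truncZnFmut, a pooled CPM at least 16.5-fold, 12.2-fold and 6.15-fold higher than the same floor. Neither locus passed the filter on low counts in the comparison of Z18truncZnFmut with Clover.

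Others had reads in every group. The Tigger1 element in NRIP1, a corepressor of nuclear receptors (chr21:15045284-15047037), had a CPM of 0.2997, 0.292 and 0.226 with Clover, 3.09, 3.92 and 3.74 with Z18fl, 2.82, 2.52 and 2.66 with Z18trunc and 1.37, 1.79 and 1.32 with Z18truncZnFmut. No group overlapped with another in these libraries, in the order Z18fl, Z18trunc, Z18truncZnFmut and Clover. Its edgeR log2 changes against Clover were 3.33 (SE 0.32, adjusted p = 2.89e-07), 2.92 (SE 0.35, adjusted p = 2.67e-06) and 2.23 (SE 0.45, adjusted p = 0.000809). Between the constructs edgeR called none of its differences (-0.51, adjusted p = 0.113, for Z18trunc against Z18fl and -0.67, adjusted p = 0.204, for Z18truncZnFmut against Z18trunc).

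The Tigger3 element in an intron of ADNP, a homeodomain protein of chromatin (chr20:50897241-50898905), had a CPM of 0.599, 0.175 and 0.509 with Clover, 3.28, 3.66 and 4.75 with Z18fl, 2.78, 3.76 and 3.04 with Z18trunc and 2.36, 1.46 and 2.02 with Z18truncZnFmut. It rose against Clover with all 3 constructs, by 2.81 (SE 0.32, edgeR adjusted p = 2.06e-06), 2.54 (SE 0.34, adjusted p = 1.16e-05) and 1.97 (SE 0.41, adjusted p = 0.00112). Within the kinase gene GSK3B, a Tigger1 element (chr3:119856894-119859249) rose by 2.41, 2.65 and 2.45 (edgeR adjusted p = 0.00154, 0.000876 and 0.00621), and the last of these calls was lost without Z18truncZnFmut replicate 3 (2.13, adjusted p = 0.107).

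The Tigger1 element in SNX9, a sorting nexin of endocytosis (chr6:157881025-157883369), had 0, 3 and 0 counts with Clover, 43, 43 and 50 with Z18fl, 24, 25 and 18 with Z18trunc and 6, 2 and 8 with Z18truncZnFmut. Z18trunc was lower than Z18fl there (-1.09, SE 0.25, edgeR adjusted p = 0.0124), a call lost without Z18fl replicate 2 (-1.06) or Z18trunc replicate 1 (-1.11), with no filter on low counts (-1.09) or with all 12 libraries in 1 fit (-1.10).

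The falls named next lay in untranslated exon sequence. The Tigger19a element in the zinc-finger gene ZNF776 (chr19:57757462-57757556) had a CPM of 4.32, 3.74 and 2.999 with Clover, 0.777, 1.22 and 1.25 with Z18fl, 2.57, 2.40 and 2.66 with Z18trunc and 2.19, 2.02 and 1.69 with Z18truncZnFmut. The Clover libraries lay above the other 9 and the Z18fl libraries below them. The edgeR log2 change was -2.12 in Z18fl (SE 0.25, adjusted p = 2.35e-06), -0.88 in Z18trunc (SE 0.21, adjusted p = 0.00249; -0.53 and not called with aligned fragments as library size) and -1.10 in Z18truncZnFmut (SE 0.24, adjusted p = 0.00164). With no filter on low counts the calls in Z18trunc (-0.52) and Z18truncZnFmut (-0.85) were lost. Z18trunc was higher than Z18fl by 1.15 (SE 0.24, adjusted p = 0.00689), which was not called without Z18fl replicate 1 (0.96, adjusted p = 0.0618). The MER6A element in SIN3B, a corepressor of transcription (chr19:16854502-16855081), had 2.04, 2.05 and 1.75 with Clover and 0.648, 0.785 and 1.25 with Z18fl, a change of -1.48 (SE 0.29, edgeR adjusted p = 0.00046).

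**Figure D5:**
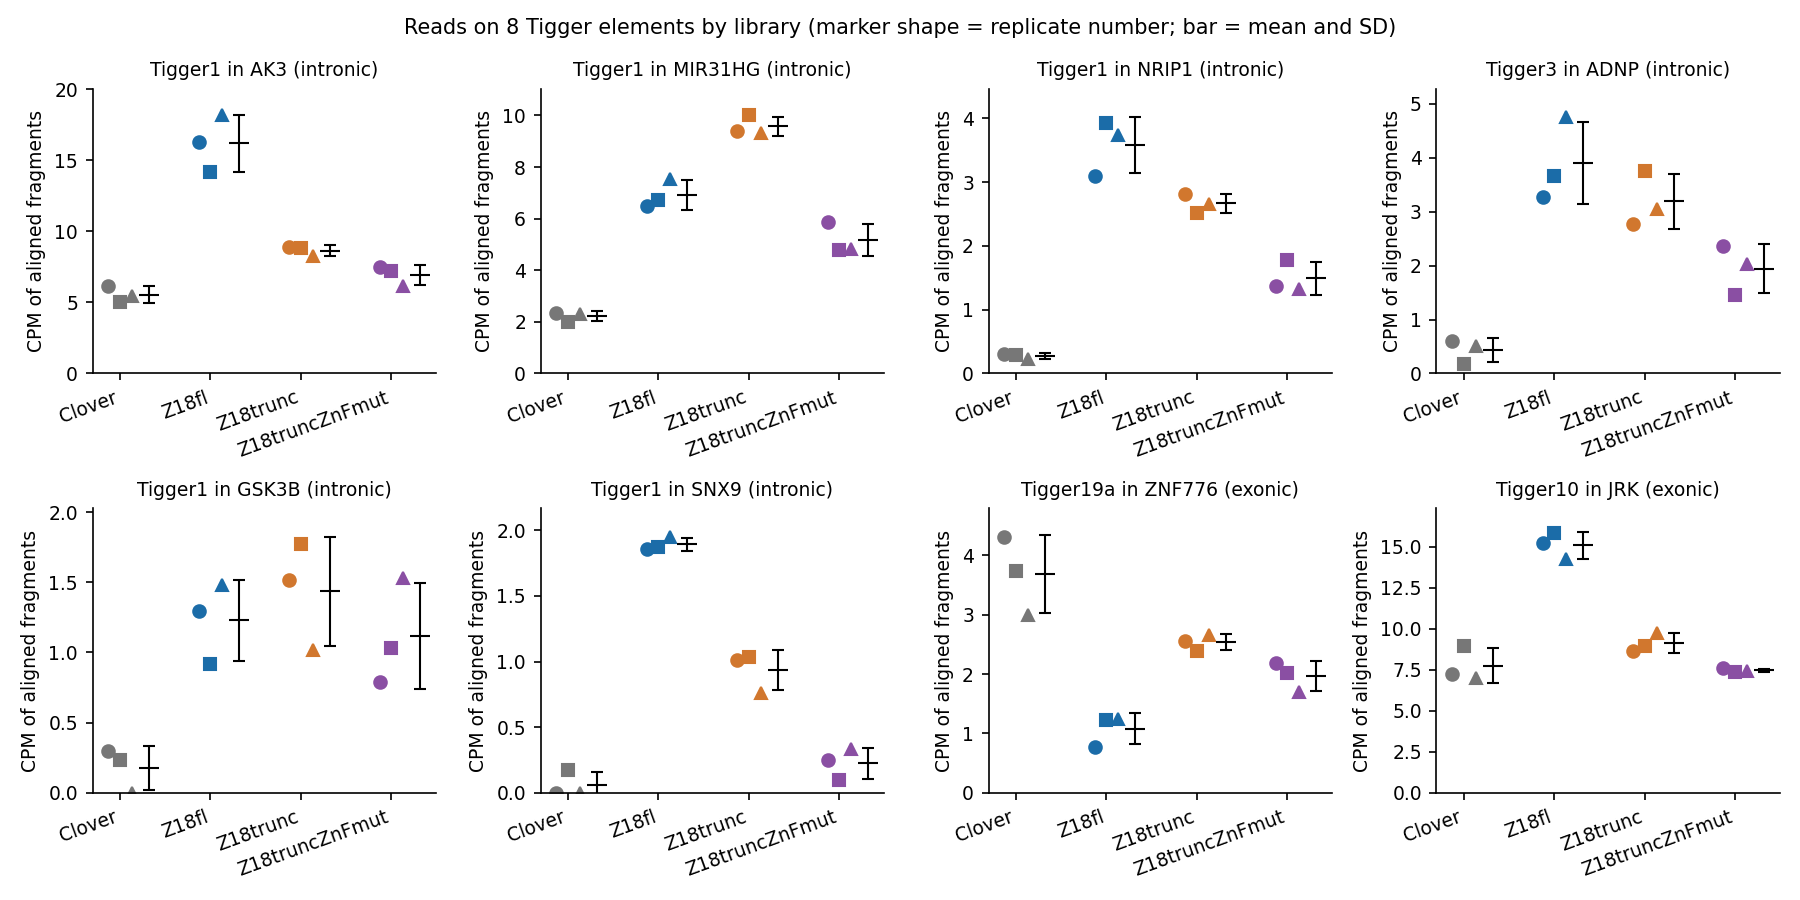
CPM (vertical axes) on 8 Tigger elements in each library, with marker shape for the replicate number and bars for mean and SD, cut at 0 for SNX9 in Clover. The intronic elements have their lowest mean in Clover, NRIP1 falls in the order Z18fl, Z18trunc, Z18truncZnFmut, and ZNF776 is highest in Clover.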

How the data were processed

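PAR-CLIP RNA from 12 libraries of A375 cells, 3 for each of 4 constructs, was analysed, with groups read from their titles. Reads were trimmed by the authors (cutadapt 4.6, per the submitters' processing notes) and quantified with SQuIRE on hg38, separately for every library. The deposited totals per element are expected counts, in which SQuIRE shares out multimapping reads by expectation maximization. The deposited uniquely mapping reads and aligned fragments are counts, and the deposited score, in percent, sets that total against every read aligning to the element. The authors' FPKM values were not used. A dose of the uridine analogue is not printed because the sources used here differ on it.

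Own-strand totals were rounded to whole numbers. Loci, subfamily sums and family sums of the 6 classes were each tested over the whole table by edgeR 4.0.16 under R 4.3.3, with its quasi-likelihood F test, TMM scaling and filterByExpr (minimum count 10, minimum total 15), on the 6 libraries of the 2 groups compared. TMM factors of the family fit came from the subfamily table. A call needed a Benjamini-Hochberg adjusted p below 0.05. The script was tested on simulated data. CPM was computed against aligned fragments. Precision is set by 3 libraries a group and by counting, and a locus with few counts carries a wide error.

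Gene context and untranslated sequence came from GENCODE 44. Elements with at least 50% of their length in exons of their own strand were called exonic, those whose middle lay elsewhere in a gene of that strand intronic, and the rest antisense or intergenic. Divergence is the value in the element's identifier. Sequence came from hg38. Some loci and sequences are not reported here.

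Named subfamilies had a mean of at least 300 counts over the 12 libraries or were called in a comparison. Named loci were the 6 with the highest CPM averaged over the groups, and, among called loci whose libraries did not overlap between groups, with a mean of 20 counts or more and a score averaging 90% or more in the group that was higher, the 4 largest rises and 3 largest falls against Clover and the 2 largest in each direction between constructs. Loci named outside that rule came from the same ranking without the score. The members, lists and rules were chosen with earlier results of these data known.

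Alternatives were DESeq2 1.42.0 with its size factors, aligned fragments as library size, no filter, uniquely mapping reads, both strands summed, all 12 libraries in 1 fit, the replicate number as a block, and leaving out each library.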

Additional observations from a re-analysis of the deposited data

Results flagged for a closer look

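Reads on the opposite strand of Tigger elements, which the comparisons do not use, were more abundant with 2 of the constructs than with Clover. Their sum was 632, 528 and 539 CPM in the Clover libraries (mean 566). It was 704, 712 and 734 CPM with Z18fl, with a mean of 717, and 659, 704 and 811 CPM with Z18trunc, with a mean of 724. The Z18truncZnFmut libraries stood at 607, 687 and 1751 CPM and overlapped with Clover. As a share of the own-strand counts on all elements of the 6 classes, the opposite-strand Tigger reads stood at 1.51%, 1.37% and 1.41% with Clover, 1.36%, 1.44% and 1.33% with Z18fl, 1.19%, 1.24% and 1.39% with Z18trunc and 1.14%, 1.33% and 1.94% with Z18truncZnFmut. On that scale each construct overlapped with Clover.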

How the results depend on the processing

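Of 113 results on the family's named subfamilies and loci, recomputed under the alternatives as 1428 values, 1182 kept their direction and their side of the threshold, 229 lost the call, 3 gained it and 14 changed sign. An alternative under which a locus or subfamily was not tested gave no value, and is not counted among the lost calls. Depth limits the loci: 289 of the Tigger elements could be tested in Z18fl against Clover. The cause of these changes was not tested except where the setting itself tests other libraries or features.

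With DESeq2, lower loci numbered 18 in Z18fl, 13 in Z18trunc and, between Z18trunc and Z18fl, 21, and 3 subfamilies were lower in Z18truncZnFmut. With aligned fragments as library size, Z18fl gave 12 lower loci and 43 higher and 0 lower subfamilies, Z18trunc 4 lower loci and 36 higher and 0 lower subfamilies, and Z18truncZnFmut 38 higher and 2 lower loci. Between Z18trunc and Z18fl the family then stood at -0.17 with 1 lower subfamily, and between Z18truncZnFmut and Z18trunc at 0.16 with 11 lower loci. The sign changed under that scaling for MER6A (0.078), Tigger19a (0.12) and Tigger19b (0.047) in Z18fl, and for MamRep434 (0.062), Tigger10 (0.072), Tigger19a (0.10) and Tigger19b (0.039) in Z18trunc.

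With no filter, loci numbered 237 higher and 4 lower in Z18fl, 146 and 0 in Z18trunc, and 0 lower in Z18truncZnFmut, so that 98.3%, 100% and 100% of called loci were higher. Over all loci, the same setting called 5138 higher and 1027 lower for Z18fl. Z18trunc gave 4754 against 100, while Z18truncZnFmut gave 1520 against 13. For the truncated constructs, lower calls were thus rare over all loci and not only for Tigger. The family then stood at -0.014 in Z18truncZnFmut, 13 loci were lower in Z18trunc than in Z18fl and 1 in Z18truncZnFmut than in Z18trunc. With uniquely mapping reads, 3 subfamilies were higher in Z18trunc, the family was at -0.044 with 9 higher loci in Z18truncZnFmut, 2 loci were higher in Z18trunc than in Z18fl, and 4 were lower in Z18truncZnFmut than in Z18trunc. With both strands summed, 52 loci were lower in Z18fl, the family stood at 0.12 in Z18trunc and -0.059 in Z18truncZnFmut, and signs changed for MER47C (-0.10), Tigger17 (-0.27) and Tigger2 (-0.16) in Z18fl, Tigger17 (-0.25) and Tigger2 (-0.17) in Z18trunc and Tigger2 (-0.49) in Z18truncZnFmut.

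With all 12 libraries in 1 fit, 3 subfamilies were lower in Z18fl. Z18trunc had 144 higher and 39 lower loci and 3 lower subfamilies, and Z18truncZnFmut 67 higher and 27 lower loci and 2 higher and 8 lower subfamilies. Between Z18trunc and Z18fl the family was at -0.18, not called, with 12 lower loci and 0 lower subfamilies, and between Z18truncZnFmut and Z18trunc there were 4 lower loci and 1 lower subfamily.

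Same-numbered libraries showed no shared deviation (correlations of -0.092 to 0.041 over loci). Low counts at single loci could hide one, so these values cannot tell whether the numbers pair libraries. With the replicate number as a block, the family stood at -0.0038 in Z18truncZnFmut against Clover, 1 subfamily was lower in Z18trunc than in Z18fl, and 0 loci were lower in Z18truncZnFmut than in Z18trunc.

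Leaving out each library in turn gave, in Z18fl, family values of 0.48 to 0.51, 124 to 211 higher and 16 to 33 lower loci, and 13 to 17 higher and 4 to 6 lower subfamilies. In Z18trunc it gave 0.28 to 0.37, 66 to 121 and 10 to 26 loci, and 4 to 12 and 4 to 7 subfamilies. In Z18truncZnFmut it gave -0.048 to 0.093, 10 to 19 and 2 to 6 loci, and 0 to 3 and 0 to 6 subfamilies, and Tigger1 ranged from -0.053 without Z18truncZnFmut replicate 1 to 0.27 without Z18truncZnFmut replicate 3. Between Z18trunc and Z18fl it gave -0.23 to -0.20, 0 to 1 higher and 11 to 30 lower loci, and 0 to 1 and 1 to 9 subfamilies. Between Z18truncZnFmut and Z18trunc it gave -0.31 to -0.21 for the family and 0 to 2 lower loci. The loci tested also varied. In Z18fl, 246 Tigger loci were tested without Z18fl replicate 2 and 460 without Clover replicate 1. Over all loci, 2945 of 10738 and 4652 of 20245 were called higher. For Z18trunc, 196 were tested without its replicate 2 and 428 without Clover replicate 1. Over all loci, 2189 of 10236 and 3912 of 22491 were higher. For Z18truncZnFmut, 147 were tested without its replicate 2 and 269 without that of Clover. Over all loci, 1065 of 9100 and 1351 of 15822 were higher.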

Other observations

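The largest opposite-strand signal of the family came from 1 Tigger2 element that lies antisense to HUWE1, a ubiquitin ligase gene, at chrX:53596194-53598785 on the plus strand. Its opposite-strand CPM was 86.6, 75.2 and 75.6 with Clover, 40.9, 45.6 and 41.8 with Z18fl, 51.5, 49.5 and 56.6 with Z18trunc, and 53.4, 61.3 and 38.8 with Z18truncZnFmut. All Clover libraries lay above the other 9. On its own strand this element held 0 CPM in every Clover and Z18fl library and at most 0.121 CPM in the rest. The MER44C element in an exon of PLCG1-AS1 (chr20:41100402-41101086) ran the other way on its opposite strand, with 3.24, 1.52 and 2.38 CPM with Clover and 7.99, 7.50 and 7.44 with Z18fl. Tigger1 elements antisense to ZNF121 at chr19:9563727-9564203 and chr19:9562463-9562769 fell, as the HUWE1 element did. Their mean opposite-strand CPM went from 6.04 with Clover to 3.32 with Z18fl and from 5.49 to 2.60. A Tigger16b element antisense to SLC38A1 stood at 5.85 with Clover and 5.86 with Z18fl. The MER44C element was chosen after its values were seen, and no test was made of opposite-strand reads at single loci.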
